A study of Arabidopsis thaliana with 8 samples.

Results

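LHCB4.3 is a nuclear gene of Arabidopsis thaliana (locus AT2G40100, chromosome 2) for a minor antenna protein of photosystem II. It was followed through 1 probe set, 265722_at, the only 1 of 22810 on the ATH1 array that the platform annotation gives to this gene, and it names no other gene. The annotation names 13350 genes in this way, each by at least 1 probe set that gives no other gene. The gene was picked out because of its signal at the 4 times described here, so its own values are given as a description, without a test. The arrays measured RNA from the above-ground parts of soil-grown Col-0 plants, the usual laboratory accession, with 2 arrays at each of 4 times. The control arrays (0 h) came from plants kept at 22 °C in continuous fluorescent light of 100 µmol m-2 s-1. The other arrays came from plants held at 4 °C for 1 h, 24 h or 7 d in continuous light of about 25 µmol m-2 s-1. Cold, dimmer light and time after the control harvest therefore cannot be told apart in any comparison with the control. Comparisons between cold times share temperature and light, but time in the cold and any difference in plant age cannot be told apart in them. All groups shared genotype, soil and a cold stratification of 4 d; the labels state an age of 18 d for every sample but only 10 d of growth at 22 °C, which leaves the age at harvest unsettled. They do not say whether the 2 arrays of a time came from separately grown plants, so p-values measure only the spread between these arrays.

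Light-harvesting proteins of the LHCB class bind chlorophyll a, chlorophyll b and carotenoids and pass excitation energy to the photosystem II core. The LHCB4 protein, also called CP29, is a monomeric or minor antenna protein that sits between the core and the outer trimers of LHCII, and it takes part in photoprotection. Arabidopsis has 3 LHCB4 genes. LHCB4.1 and LHCB4.2 encode the usual forms, whereas LHCB4.3 encodes a form shortened near its C-terminus that is known for responding to high light and is also called LHCB8. Chilled leaves in light are known to adjust the size of this antenna, and carbon fixation in the cold slows more than light capture does.

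The LHCB4.3 signal, a MAS5 intensity on a linear scale, was 756 and 767 on the 2 control arrays, 818 and 735 after 1 h, 505 and 447 after 24 h, and 107 and 110 after 7 d in the cold. The control and 1 h arrays overlapped, the 24 h arrays lay below both, and the 7 d arrays lay below all others. The means were 761 ± 7.74 at control, 777 ± 59.0 at 1 h, 476 ± 40.6 at 24 h and 108 ± 2.13 at 7 d (SD, n = 2 arrays each). In order of level, 1 h and control did not differ beyond their spread, while the steps from there to 24 h and to 7 d each exceeded it. The lowest of the 8 signals was still far above 22.5, the highest 40th percentile of any array, and all 8 arrays passed that filter on weak signals.

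**Figure D1:**
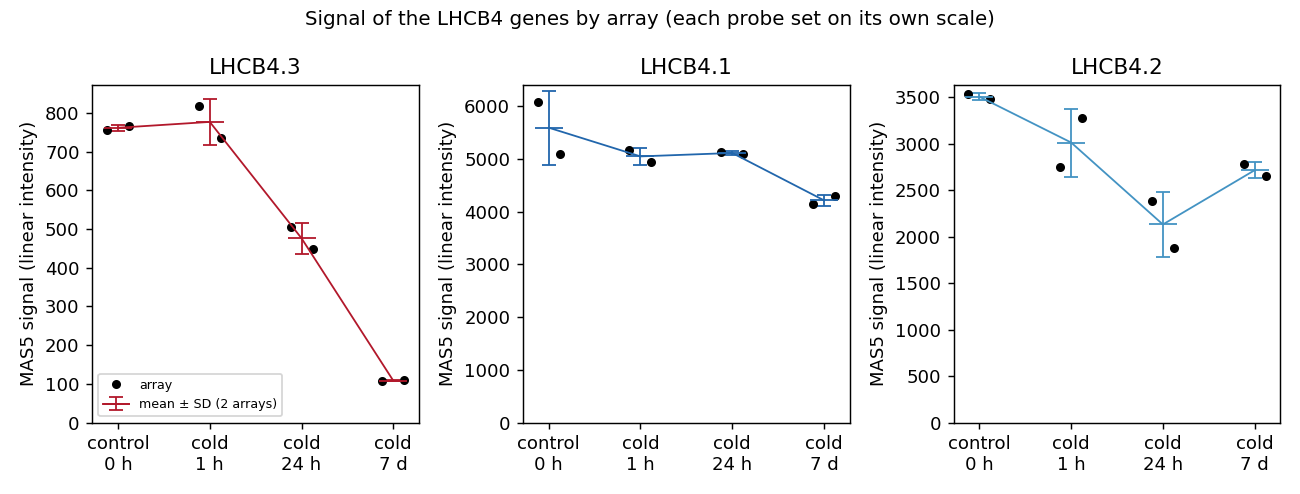
MAS5 signal (linear, each axis from 0) of LHCB4.3, LHCB4.1 and LHCB4.2 by time in the cold (control 0 h, 1 h, 24 h, 7 d); points are arrays, bars are the mean ± SD of 2 arrays, and levels are not comparable between panels. LHCB4.3 stood at 476 after 24 h and at 108 after 7 d, while LHCB4.1 had a mean of 4215 at 7 d and LHCB4.2 was lowest at 24 h.

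Differences are given on the scale of log2(signal + 6.07), which makes weak signals look less changed than they are. LHCB4.3 differed from the control by 0.03 at 1 h, by -0.67 at 24 h and by -2.75 at 7 d. These log2 values correspond to 1.59-fold lower at 24 h and 6.71-fold lower at 7 d. The signal left was 62.5% of the control mean at 24 h and 14.2% at 7 d. Between 24 h and 7 d alone the log2 difference was -2.07, or 4.21-fold lower, which is 75.5% of the whole 7 d difference on that scale. Within replicate numbers 1 and 2 the 7 d difference was -2.75 and -2.74, and the 24 h difference was -0.58 and -0.77. Because whole above-ground parts were sampled, fewer cells that express the gene and less of its RNA per cell cannot be told apart.

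Set beside all 14758 probe sets that passed the filter on weak signals, the 7 d difference of LHCB4.3 ranked 11 from the lowest, and 4 from the lowest among the 8047 that name 1 gene. Its step from 24 h to 7 d ranked 21 from the lowest. At 24 h its rank was 2085, with 14.1% of the probe sets at or below its difference, so at that time it was not among the extreme ones. Over all tested probe sets the median log2 difference from control was -0.10 at 24 h and -0.0015 at 7 d. A total of 50 probe sets stood at -2 or below at 7 d against control, and 23 did so at 7 d against 24 h. Both held for 6 probe sets, of which 3 name a gene: LHCB4.3, PYK10 and MSRB6. The remaining 3 name no gene. Centring each array on its median shifts the 24 h comparison upwards, and the LHCB4.3 difference at 24 h was then -0.53.

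**Figure D2:**
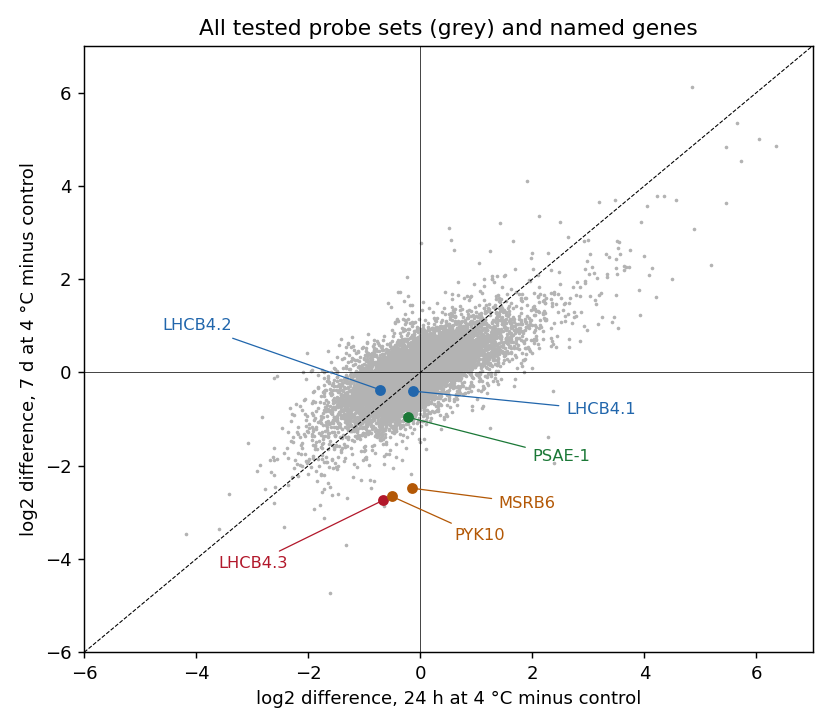
Log2 difference from control at 24 h (horizontal) and at 7 d (vertical) for the 14758 tested probe sets in grey, with named genes in colour; both axes share the 2 control arrays and the dashed line marks equal differences. LHCB4.3 (-0.67 and -2.75), PYK10 (-0.51 and -2.66) and MSRB6 (-0.15 and -2.48) lie well below the dashed line.

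The other LHCB4 genes took different courses from LHCB4.3, with 7 d values much nearer to the control. LHCB4.1 had signals of 6088 and 5096 on the control arrays, 5161 and 4935 at 1 h, 5139 and 5085 at 24 h, and 4139 and 4291 at 7 d. Its 7 d arrays lay below all others, and its 1 h and 24 h arrays overlapped the control. At 7 d LHCB4.1 was 1.32-fold lower than control (log2 -0.40 ± 0.10 SE, limma adjusted p = 0.0302, n = 2 arrays per time). That call rested on few arrays: leaving out control replicate 1 gave an adjusted p of 0.111, leaving out 24 h replicate 1 or 2 gave 0.0529 or 0.0528, and leaving out 7 d replicate 1 or 2 gave 0.133 or 0.0973. It also ended in 4 of 9 other processing settings. With quantile normalization the LHCB4.1 difference at 7 d was -0.12 (adjusted p = 0.244), against -0.29 at 24 h (adjusted p = 0.0120). With the deposited scaling, LHCB4.1 stood at -0.12 ± 0.10 at 24 h (adjusted p = 0.396), and at 0.02 with median centring.

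LHCB4.2 had signals of 3536 and 3482 on the control arrays, 2756 and 3274 at 1 h, 2384 and 1882 at 24 h, and 2780 and 2654 at 7 d. The 24 h arrays were the lowest, and the arrays of every cold time lay below both control arrays. LHCB4.2 fell at 24 h by 0.73 ± 0.13 on the log2 scale (limma adjusted p = 0.00515, 1.65-fold lower), a call kept without each array in turn (highest adjusted p = 0.0392). At 7 d it stood at -0.37 ± 0.13 (adjusted p = 0.0950), and between 24 h and 7 d at 0.36 ± 0.13 (adjusted p = 0.123). From 1 h to 24 h it was lower by a called -0.50 ± 0.13 (adjusted p = 0.0235), where 14.9% of all probe sets were lower and 11.6% higher; 43.6% of those calls were higher, and 61.2% with median centring. At 24 h LHCB4.2 and LHCB4.3 were thus at similar log2 differences (-0.73 and -0.67), and by 7 d they were at -0.37 and -2.75.

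Taking the ratio within each array removes any scaling shared by the 2 probe sets. Relative to LHCB4.1, and set to 0 at control, the log2 ratio of LHCB4.3 was 0.21 and 0.12 at 1 h, -0.47 and -0.63 at 24 h, and -2.34 and -2.35 at 7 d. Relative to LHCB4.2 it was 0.45 and 0.05 at 1 h, -0.03 and 0.14 at 24 h, and -2.43 and -2.33 at 7 d. The control arrays themselves were at -0.14 and 0.14 relative to LHCB4.1 and at -0.02 and 0.02 relative to LHCB4.2. The ratios to LHCB4.1 were below the control arrays by 24 h, the ratios to LHCB4.2 lay on both sides of them, and both ratios were low at 7 d. A ratio of this kind shows unequal change and does not show which of the 2 genes changed.

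Of 21 light-harvesting antenna genes listed, the annotation names these 3 by a probe set of their own, so LHCB1, LHCB2, LHCB3, LHCB5, LHCB6, LHCB7 and the LHCA genes of photosystem I are not reported here. The 8 lists around the antenna held 120 entries in all. Besides LHCB4.3, 32 of them had a probe set of their own, and each of these passed the filter. At 1 h, 2 of the 32 (6.25%) were lower, the plastid genes psbA and psbN, and the other 30 did not pass. Of all tested probe sets, 0.0407% were lower at 1 h and 0.867% higher. At 24 h, 8 of the 32 (25.0%) were lower and 1 was higher, and with quantile normalization 15 were lower. The background at 24 h was 15.1% lower and 11.1% higher, a split that depends on scaling: of the calls 42.3% were higher, and 61.3% with median centring. At 7 d, 15 of the 32 (46.9%) were lower, with a median log2 difference of -0.53, and 17 did not pass. That count dropped to 5 when control replicate 1 or 7 d replicate 1 was left out, and was from 7 to 9 with no filter, with no trend in the variance or with a fit of the control and 7 d arrays alone. The background at 7 d was 8.54% lower and 7.33% higher. Taken apart, 7 of 17 nuclear genes (41.2%, median -0.34) and 8 of 15 plastid genes (53.3%, median -0.79) were lower at 7 d. The lowest of the 32 at 7 d was psbN at -1.31, so LHCB4.3 at -2.75 lay below all of them. At 7 d the psbN signals were 40.4 and 49.4, weaker than those of LHCB4.3 (107 and 110). The log2 scale used makes weak signals look less changed, so the sizes of these 2 differences are not strictly comparable. The lists were drawn up with earlier results of these arrays known, and these counts are a description of the pathway.

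**Figure D3:**
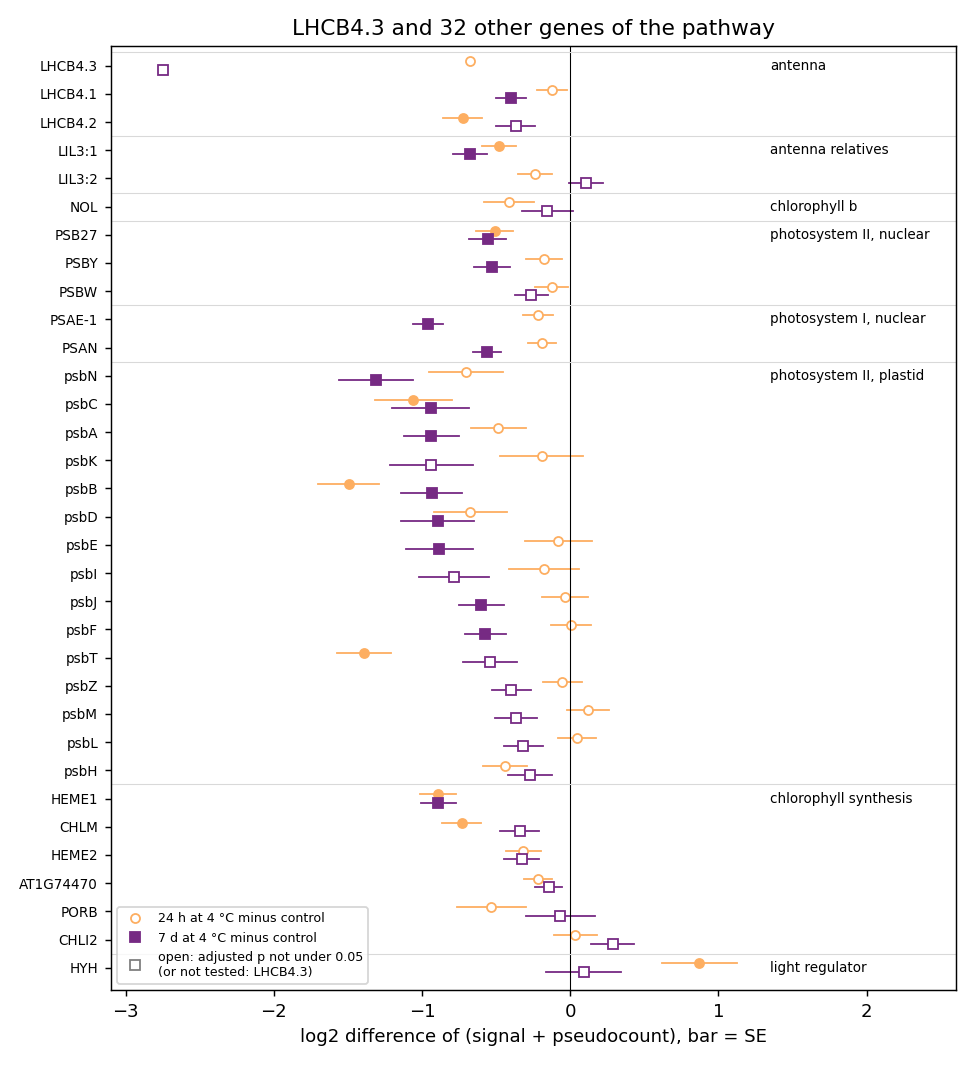
Log2 difference from control at 24 h (circles) and 7 d (squares) for LHCB4.3 and 32 other genes grouped by role; bars are SE from the fit, filled symbols had a limma adjusted p under 0.05, and LHCB4.3 was not tested. At 7 d LHCB4.3 stands at -2.75 and the next lowest gene, psbN, at -1.31. The 7 d signals of psbN (40.4 and 49.4) were weaker than those of LHCB4.3 (107 and 110).

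Among relatives of the antenna proteins, LIL3:1, a light-harvesting-like protein that supports chlorophyll synthesis, had 539 and 508 at 7 d against 854 and 826 on the control arrays. The groups did not overlap, and LIL3:1 fell by 0.68 ± 0.11 on the log2 scale at 7 d (limma adjusted p = 0.00644), a call kept without each array in turn. At 24 h it was already lower by a called -0.48 ± 0.11 (adjusted p = 0.0150). That earlier call ended without any 1 of the 4 arrays compared (adjusted p from 0.0505 to 0.0797) and with median centring (adjusted p = 0.0600). Its paralog LIL3:2 stood at 0.11 ± 0.11 at 7 d (adjusted p = 0.571), with groups that overlapped. NOL, a chlorophyll b reductase that starts the breakdown of antenna-bound chlorophyll b, stood at -0.41 ± 0.17 at 24 h (adjusted p = 0.108) and -0.15 ± 0.17 at 7 d (adjusted p = 0.586).

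Of 5 nuclear genes for subunits or assembly factors of the photosystems, 4 were lower at 7 d, each by less than LHCB4.3. At 7 d against control 8.54% of all tested probe sets were lower. PSAE-1, a stromal subunit of photosystem I, had 2661 and 2825 at 7 d against 5768 and 4957 on the control arrays. Both 7 d arrays were below all 6 others, and PSAE-1 fell by 0.96 ± 0.10 (limma adjusted p = 0.000814) against control and by 0.75 ± 0.10 (adjusted p = 0.00532) against 24 h. Between 24 h and 7 d, 4.21% of all probe sets were lower and 4.31% higher, so 50.6% of the calls were higher, against 28.3% with median centring. PSAN, a lumenal subunit of photosystem I, fell by 0.56 ± 0.09 at 7 d (adjusted p = 0.00669). Of 3 nuclear photosystem II genes, PSB27, an assembly factor of the complex, was lower at 7 d by a called -0.56 ± 0.12 (adjusted p = 0.0207) and at 24 h by -0.51 ± 0.12 (adjusted p = 0.0181). The small subunit PSBY was at -0.53 ± 0.12 (adjusted p = 0.0228), and the small subunit PSBW at -0.26 ± 0.11 did not pass (adjusted p = 0.152). PSAE-1 and PSAN kept their 7 d calls without each array in turn. With quantile normalization their 7 d differences were smaller, at -0.73 and -0.40, and still called. Across 9 other processing settings the 7 d call was kept in 8 for PSB27 (highest adjusted p = 0.0596) and in 6 for PSBY. The 7 d calls of PSB27 and PSBY ended without control replicate 1 (adjusted p = 0.103 and 0.110) or 7 d replicate 2 (0.109 and 0.0930), and that of PSBY also without 7 d replicate 1 (0.0837). Quantile normalization ended the call of PSBY (difference -0.24, adjusted p = 0.0938), and the 24 h call of PSB27 ended without control replicate 1 (0.0901), without 24 h replicate 1 (0.113) and with median centring (0.0663).

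Of the 15 plastid genes listed for the photosystem II core, to which LHCB4 binds, 2 were lower at 1 h. At 24 h 3 were lower and at 7 d 8, and the others did not pass. Of all tested probe sets, 0.0407% were lower at 1 h, 15.1% at 24 h and 8.54% at 7 d. The 24 h count of 3 is close to that share, so the count alone does not mark these genes out at 24 h. At 1 h psbA, the gene of the D1 protein, stood at 558 and 433 against 1289 and 1516 on the control arrays, and fell by 1.497 ± 0.19 on the log2 scale (limma adjusted p = 0.00670). At the same time psbN fell by 1.81 ± 0.25 (adjusted p = 0.0115). The psbN signals were 38.6 and 22.7 at 1 h, against 114 and 126 on the control arrays. The lower 1 h signal was close to 22.5, the highest 40th percentile of any array. For LHCB4.3 the 1 h arrays lay on both sides of the control arrays. At 24 h psbB and psbT, for the core antenna protein CP47 and a small subunit, fell by 1.49 ± 0.21 and 1.39 ± 0.18 (adjusted p = 0.00149 and 0.00121). At 7 d they stood at -0.93 and -0.54, and between 24 h and 7 d psbT rose by 0.85 ± 0.18 (adjusted p = 0.0277) while psbB was at 0.56 ± 0.21 (adjusted p = 0.123). The gene of the other core antenna protein, psbC for CP43, was lower at 24 h by a called -1.06 ± 0.26 (adjusted p = 0.0184), a call that ended without control replicate 2 (0.0990) or 24 h replicate 2 (0.116). At 7 d, the median of the 15 genes was -0.79, with 8 of them lower and 7 short of the threshold. With the replicate number as a block, psbI and psbK passed too (adjusted p = 0.0124 and 0.0147). Those 8 were psbA, psbB, psbC, psbD, psbE, psbF, psbJ and psbN, with adjusted p from 0.0109 to 0.0418. All 8 calls ended without 7 d replicate 1 (adjusted p from 0.0540 to 0.186) and 7 without control replicate 1 (0.0530 to 0.173). Without control replicate 2 the calls of psbA, psbC, psbD and psbN ended (0.0597 to 0.187), and without 7 d replicate 2 those of psbE and psbF (0.0754 to 0.0910). Those of psbC, psbD, psbE or psbJ also ended without an array of 1 h or 24 h (0.0502 to 0.0594). Other processing settings ended the 7 d calls of psbB, psbC, psbD, psbE, psbF and psbJ in at least 1 case (highest adjusted p from 0.0515 to 0.0806), but not those of psbA and psbN. The 1 h calls of psbA and psbN ended without control replicate 2 (adjusted p = 0.0576 and 0.0874) or 1 h replicate 2 (0.0537 and 0.0695), and that of psbN without control replicate 1 (0.0859).

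In chlorophyll synthesis, which supplies the pigments of the antenna, 2 of 6 genes were lower at 24 h and 1 at 7 d, where 15.1% and 8.54% of all probe sets were lower; the 7 d count is within 1 gene of that share. HEME1, a uroporphyrinogen decarboxylase, had 567 and 579 on the control arrays, 323 and 290 at 24 h and 299 and 314 at 7 d. It fell by 0.89 ± 0.12 at both times (limma adjusted p = 0.00124 at 24 h and 0.00257 at 7 d), with 0.00 ± 0.12 between them (adjusted p = 0.991). CHLM, a methyltransferase of the magnesium branch, fell by 0.73 ± 0.13 at 24 h (adjusted p = 0.00503) and stood at -0.34 ± 0.13 at 7 d (adjusted p = 0.119). The HEME1 and CHLM calls were kept without each array in turn. HEME2, PORB, CHLI2 and AT1G74470 did not pass at 24 h or 7 d, with differences from -0.53 to 0.29. With the replicate number as a block, PORB and HEME2 passed at 24 h (adjusted p = 0.0103 and 0.0466). The light-signalling transcription factor gene HYH, a relative of HY5, was the 1 gene of the 32 called higher at 24 h, by 0.87 ± 0.25 at 24 h (adjusted p = 0.0346). That call ended without control replicate 1 (adjusted p = 0.199), 24 h replicate 1 (0.0631) or 24 h replicate 2 (0.184), and at 7 d HYH stood at 0.09 ± 0.25 (adjusted p = 0.845).

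The profile of LHCB4.3 over the 8 arrays was compared with those of 8046 other probe sets that name 1 gene, by Pearson's r of the log2 values. The arrays share controls, scaling and the single large step at 7 d, and r is used only to order genes. An r over 0.9 was reached by 102 genes and over 0.95 by 33. PYK10, the beta-glucosidase of the ER bodies, was the most alike (r = 0.996, Spearman rho = 0.929), and also the nearest by the distance between the log2 profiles (0.364). It had 152 and 130 on the control arrays, 158 and 144 at 1 h, 109 and 85.3 at 24 h, and 15.6 and 18.9 at 7 d. As with LHCB4.3, the control and 1 h arrays overlapped, the 24 h arrays were lower and the 7 d arrays were the lowest of all. PYK10 fell by 2.66 ± 0.17 at 7 d against control (limma adjusted p = 9.96e-05) and by 2.14 ± 0.17 against 24 h (adjusted p = 0.000797).

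The next in order were AT1G52510 (r = 0.994), AT3G48420 (r = 0.993), PMEAMT (r = 0.989), AT1G16080 (r = 0.983), MSRB6 (r = 0.980), AT5G28750 (r = 0.979) and PSAE-1 (r = 0.977). PMEAMT, a phosphoethanolamine N-methyltransferase of phospholipid synthesis, stood at -0.64 at 24 h and -1.79 at 7 d. MSRB6, a methionine sulfoxide reductase, had 345 and 298 on the control arrays, 316 and 265 at 24 h and 51.8 and 53.0 at 7 d. Its 24 h arrays overlapped the control, and its log2 difference was -0.15 at 24 h and -2.48 at 7 d. The 7 d difference of these genes ranged from -0.57 for AT5G28750 to -2.66 for PYK10, so a high r does not mean an equal size of change.

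The 7 d arrays lay farthest from the median of LHCB4.3, and over the other 6 arrays the order was very different. PMEAMT then had r = 0.991 and came 26th among the 8046 genes. PYK10 (r = 0.9505) came 424th, AT3G48420 (r = 0.945) 499th and AT1G52510 (r = 0.927) 716th. AT1G16080 (r = 0.869) came 1295th, AT5G28750 (r = 0.811) 1744th, MSRB6 (r = 0.694) 2475th and PSAE-1 (r = 0.661) 2641st. PMEAMT thus stayed close to LHCB4.3 without the 7 d arrays. For the other genes named, the place at the top of the order rests on the 7 d arrays. By r over 8 arrays LHCB4.1 came 212th in order (r = 0.848) and LHCB4.2 2428th (r = 0.296). The genes of most opposite course were AT3G11800 (r = -0.996), AT3G17780 (r = -0.985) and AT3G24570 (r = -0.982), at 0.46, 1.05 and 0.41 on the log2 scale at 7 d. On the chromosome, a neighbouring gene with a probe set of its own, AT2G40110, was looked up after the values were seen. It stood at -1.10 ± 0.27 at 24 h (limma adjusted p = 0.0188) and -0.31 ± 0.27 at 7 d (adjusted p = 0.481).

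**Figure D4:**
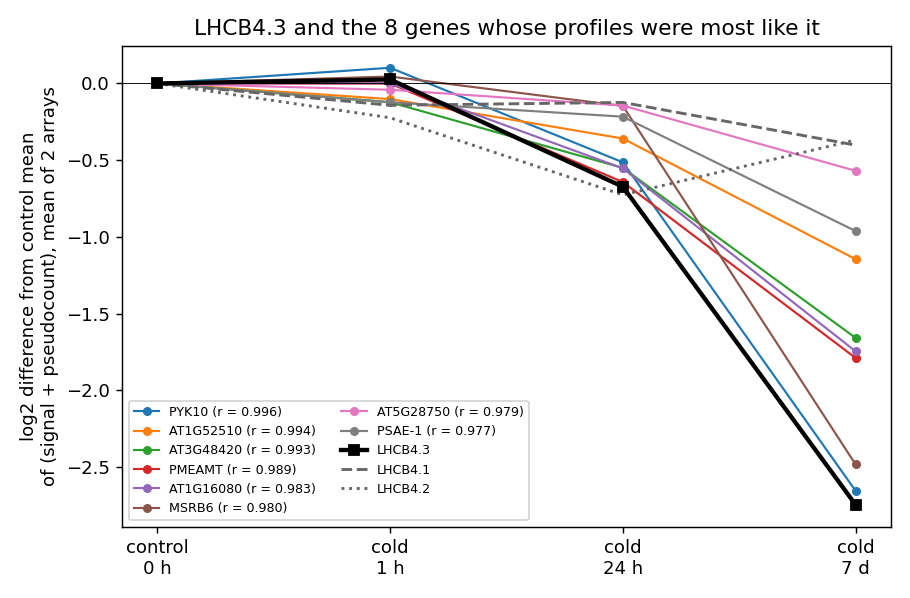
Log2 difference from the control mean (mean of 2 arrays) at control, 1 h, 24 h and 7 d for LHCB4.3 in black, the 8 genes of highest Pearson r with it in colour, and LHCB4.1 and LHCB4.2 in grey. PYK10 ends at -2.66 beside LHCB4.3 at -2.75, whereas PSAE-1 ends at -0.96 and LHCB4.1 at -0.40. The 7 d signals of PYK10 were weak, below 22.5, the highest 40th percentile of any array.

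Some genes listed as tissue markers were lower at 7 d, as LHCB4.3 was. Those listed for leaf mesophyll are themselves photosynthesis genes. Of 8 leaf mesophyll markers 3 had a probe set, and their summed signal was 11095 to 13321 on the control arrays, 10543 to 11226 at 1 h, 10870 to 11333 at 24 h and 7968 to 8237 at 7 d. RCA, the activase of Rubisco, fell by 0.67 ± 0.10 at 7 d (limma adjusted p = 0.00385). With quantile normalization the RCA difference was smaller, at -0.35 (adjusted p = 0.00950). PRK and SBPASE, enzymes of the Calvin cycle, were lower by a called -0.60 ± 0.14 and -0.43 ± 0.12 (adjusted p = 0.0213 and 0.0460), and both calls ended without control replicate 1 or 7 d replicate 1 (0.108 to 0.199). The SBPASE call also ended without any 1 of the other arrays except control replicate 2 (0.0649 to 0.137). It was kept in only 4 of 9 other processing settings and ended with quantile normalization (0.0559) and median centring (0.0568), and the PRK call ended in 2 of the 9 (highest adjusted p 0.0624). Of 9 root markers 2 had a probe set, PYK10 and AT5G17820, and AT5G17820 read from 0.893 to 2.85 over the 8 arrays and did not pass the filter on weak signals. The sum of these 2 probe sets was 132 to 154 on the control arrays, 146 to 159 at 1 h, 86.2 to 110 at 24 h and 16.6 to 20.7 at 7 d. Nearly all of it came from PYK10, so the sum rests on 1 gene and root tissue cannot be read from it. The 1 guard cell marker with a probe set, AT1G22690, stood at -0.26 ± 0.14 at 7 d (adjusted p = 0.231), and of 5 flower and 5 senescence markers 0 were named. The part of a change in tissue makeup in the LHCB4.3 values was not tested.

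Median signals of the 8 arrays were 32.8 to 37.8, and the 2 arrays of a time had a Pearson r between 0.964 and 0.975 over tested probe sets, which are not independent replicates. The 3′ to 5′ signal ratio of the GAPDH control, a measure of RNA quality, was 1.24 and 1.26 at control, 1.46 and 1.46 at 1 h, 1.34 and 1.18 at 24 h, and 1.36 and 1.17 at 7 d. Both 1 h arrays stood above every other array, and at 24 h and 7 d the arrays lay on both sides of the control. The part of this ratio in the 1 h values of psbA and psbN was not tested.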

How the data were processed

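RNA from 8 samples was hybridised to 8 ATH1 arrays, 2 per time. The deposited values are intensities, 1 per probe set, made by the authors with MAS5 per the submitters' processing notes; each array's mean, trimmed by 2% at each end, is 100. Probe sets were named by the platform annotation: 13513 of 22810 name 1 gene, 503 several and 8730 none, and 64 control probe sets were left out. Of those naming 1 gene, 13436 matched RefSeq's gene table, used for names only. The intensity plus 6.07, the 20th percentile of the table, was put on the log2 scale. A probe set was kept if its signal reached the 40th percentile of the array on 2 or more arrays, which left 14758. All 4 times were fitted together in limma 3.58.1 (R 4.3.3, lmFit and eBayes with a variance trend, 4 residual degrees of freedom), two-sided, with Benjamini-Hochberg adjustment over all tested probe sets and a threshold of 0.05. The fit was tested on simulated data. With 2 arrays per time their number limits the precision.

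The gene, its lists and the tests were chosen with earlier results of these arrays known. Named genes were all antenna genes with a probe set, up to 4 per other pathway list by the F test, up to 3 per marker list by level, and the 8 most and 3 least similar genes by Pearson's r. Further genes of the photosystem II core and chlorophyll lists, and AT2G40110, were named after their values were seen. Of 153 list entries in 13 lists, 39 had a probe set of their own. Alternatives covered the pseudocount, array scaling, filter, variance trend, samples fitted, replicate block and leaving out each array.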

Additional observations from a re-analysis of the deposited data

How the results depend on the processing

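The LHCB4.3 difference ranged from -0.05 to 0.10 at 1 h, from -0.76 to -0.59 at 24 h and from -2.77 to -2.73 at 7 d without each array in turn. At 24 h it was -0.53 with median centring. At 7 d it was -2.79 with a pseudocount at the 10th percentile, -2.59 at the 40th, -2.79 with quantile normalization and -2.71 with median centring. Leaving out each array, limma called 34 to 157 probe sets higher and 0 to 5 lower at 1 h, and from 707 to 1134 had an unadjusted p under 0.05 in either direction. The same range was 895 to 1646 higher and 1052 to 2329 lower at 24 h, and 365 to 915 higher and 416 to 1076 lower at 7 d. Between 1 h and 24 h it was 914 to 1713 higher and 994 to 2293 lower, and between 24 h and 7 d 101 to 484 higher and 135 to 594 lower. Median centring gave 1467 lower at 24 h, and 396 higher and 1005 lower for 7 d against 24 h. For that last comparison 406 were higher with quantile normalization, 342 with no filter, 409 higher and 401 lower with no variance trend, and 327 higher when fitting the 2 times alone. Fitting the 2 times alone also gave 2 lower at 1 h, and 594 higher and 771 lower at 7 d. Of LHCB4.1 and LHCB4.2, 2 were called at 24 h with quantile normalization, and 0 at 7 d with quantile normalization, no filter, no variance trend or the 2 times alone, and 0 to 1 without each array; their median at 7 d was -0.15 with quantile normalization. Of the 32 pathway genes, 15 were lower at 24 h with quantile normalization; at 7 d 9 were lower with no filter, 7 with no variance trend and 8 with the 2 times alone, and 5 to 15 without each array (6 to 10 at 24 h). Of the 8 most similar genes, 2 were shared by Spearman's rho, 3 by profile distance, 5 with quantile normalization and 5 to 7 without each array. The cause of these shifts was not tested. Of 30 calls among listed genes against control, 11 were kept in every setting tried and 0 changed sign. Same-numbered arrays had deviations correlated at 0.164 to 0.362, but there are only 2 numbers and the labels name no shared batch, so the numbers were not taken as pairs. The replicate block kept all 30 calls, called 8 more (psbB at 1 h, psbH, psbN, HEME2, PORB and PYK10 at 24 h, psbI and psbK at 7 d), and gave 215 higher at 1 h and 1389 higher and 1093 lower between 24 h and 7 d.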
